A study of Arabidopsis thaliana with 39 samples.

Results

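The stretch analysed here lay behind the herbicide resistance gene bar on the T-DNA of plasmid pCSA110 in the Arabidopsis thaliana line SAIL_232. It covered 2771 nt. On the deposited plasmid of 7541 bp, counted from 1, it began behind the last base of bar at 1379 bp and ended 1000 nt before the start codon of the GUS reporter gene at 5151 bp. Its members were small RNA reads whose midpoint fell in the stretch and whose bases were equal to the plasmid, 444 (exact Poisson 95% interval 404 to 487) of the 3175 small RNA reads listed on pCSA110. With them came 4533 (4402 to 4667) of the 34770 aligned pieces of RNA-seq reads on this plasmid, chosen by their first base. Both assays had 1 library, made from leaf tissue, labelled as whole rosette, of pooled, segregating SAIL_232 plants that carry the pCSA110 T-DNA. Per the methods these were harvested some weeks after bolting, and labels and methods differ on temperature and day length. The small RNAs were cut from a gel by size. The small RNA library of the line SALK_059379, which carries the pROK2 T-DNA, was used only for sequences that both plasmids hold. No second library of either assay from SAIL_232 and no untransformed control was analysed here. All intervals therefore cover counting error only, and no p-value was computed. Values of different windows are compared through their intervals as a description of the 2 SAIL_232 libraries. The deposited plasmid sequence has no annotation of this stretch. A single open reading frame of at least 100 codons lay wholly in it, 286 codons on the plus strand, 1086 to 1946 nt behind bar. No sequence is printed, since the stretch is vector sequence.

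In plants, a transcript is normally released and polyadenylated a short way behind its coding region, often near an AATAAA-like hexamer. RNA that continues past this point is called read-through. When such RNA, or any aberrant transcript of a transgene, is copied into double-stranded RNA, Dicer-like enzymes cut it into small RNAs on both strands. Classes of 21 and 22 nt are known for silencing of transcripts, and those of 24 nt for RNA-directed DNA methylation. Fragments of degraded RNA carry no fixed length and come from the transcribed strand alone.

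Both RNA types were listed behind bar, but they were distributed differently. Of the RNA-seq pieces, 90.1% (89.2 to 90.9, exact Clopper-Pearson 95% interval) began within 500 nt of the bar stop codon, against 39.9% (35.3 to 44.6) of the small RNAs. With neighbouring pieces joined into 917 reads the RNA-seq share was 71.0% (67.9 to 73.9). It was 79.8% (77.9 to 81.7) for pieces of at least 15 bases and 83.2% (80.7 to 85.5) for pieces equal to the plasmid. With identical pieces counted once it was 40.04% (35.6 to 44.6) of 482, close to that of the small RNAs. Such a count leaves out how often pieces recurred, and thus the abundance that the other shares weigh. The median distance was 46 nt for RNA-seq pieces and 662 nt for small RNAs. On the plus strand, which is the coding strand of bar, small RNAs had a median distance of 686 nt, and on the minus strand one of 641 nt. Small RNAs were mostly on the plus strand, 339 of 444 reads or 76.4% (72.1 to 80.2). RNA-seq pieces were listed on the minus strand in 98.2% (97.8 to 98.6) of cases, as were 98.6% (98.5 to 98.8) of the pieces on bar itself. The sources used here do not state whether this RNA-seq library lists the transcript itself or its complement. These shares show that the stretch and bar were mostly listed on the same strand, opposite to the coding strand of bar.

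**Figure D1:**
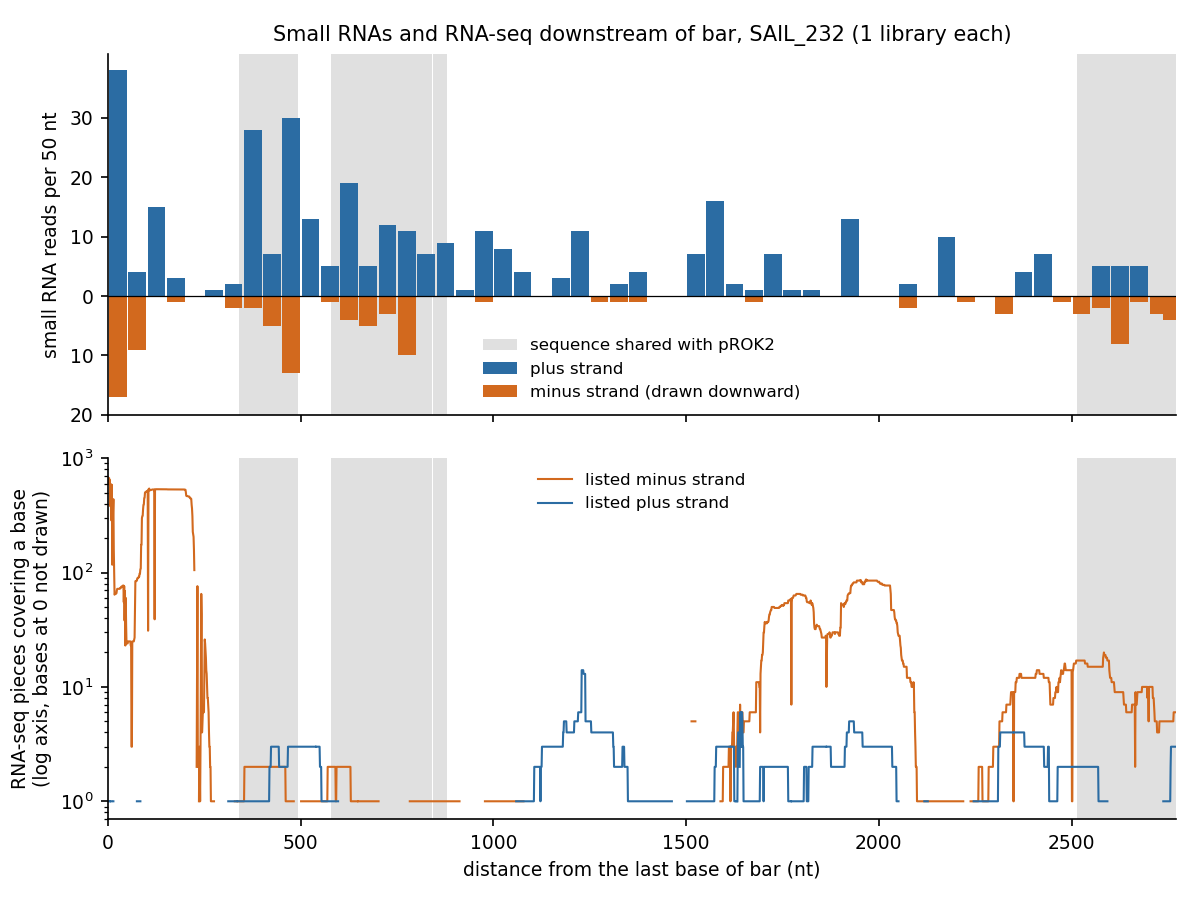
Small RNA reads per 50 nt (upper panel, plus strand upward and minus strand downward) and RNA-seq pieces covering each base (lower panel, log axis, bases at 0 not drawn) against the distance from the last base of bar in nt. Grey bands mark sequence shared with pROK2. RNA-seq falls from above 500 pieces to 0 at 225 nt, has short peaks of at most 76 pieces before 350 nt, and rises again on the minus strand between 1501 and 2250 nt, whereas small RNAs continue across the stretch.

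Long RNA-seq pieces ended abruptly, close to a polyadenylation hexamer. The plus strand of the stretch held a single AATAAA, 204 to 209 nt behind bar, and the minus strand held it at 998 and 1767 nt. Of all 7292 windows of 250 nt on pCSA110, 16.4% held this hexamer on the plus strand and 24.4% on either strand, so that the match is a description of the sequence and not evidence of its use. The number of pieces covering a base was 535 at 125 nt, 533 at 175 nt and 530 at 200 nt. It was 0 at 225 nt and 14 at 250 nt. Short pieces were still listed behind this point, with at most 76 at a base from 226 to 350 nt, and 97 joined reads spanned the base at 230 nt and 28 that at 250 nt.

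The ends of long pieces were placed more precisely. In this interval 533 minus-strand pieces had at least 20 bases, and the bases of 457 of them equalled the plasmid within 30 nt of the listed position, in 426 cases 2 nt before it. Listed positions can therefore be off by a few nt. Of these 457 pieces, 379 (82.9%) ended 214 to 222 nt behind bar, which is 5 to 13 nt past the last base of the hexamer. Another 55 (12.0%) ended at 199 or 200 nt, just before it, and none ended past 226 nt. In the next 40 nt, 194 minus-strand pieces were listed to start, with a median of 1 base. Of these, 169 (87.1%) consisted of A alone, written in the orientation of the plus strand. Of all bases of these pieces 85.9% were A, whereas 37.5% of the plasmid bases there are A. The bounds of both groups of ends were set after the values had been seen.

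Small RNAs followed a different course over the same bases. They were dense directly behind bar, with 55 reads at 1 to 50 nt (1100 per kb, 829 to 1432). The next 50 nt held 13 reads (260 per kb, 138 to 445). From 101 to 225 nt, under the RNA-seq plateau of 493 pieces per base on average, 19 reads were found (152 per kb, 91.5 to 237), 18 of them on the plus strand. Behind this plateau, at 226 to 350 nt, there were 5 reads (12.99 to 93.3 per kb). No member had its midpoint between 176 and 275 nt, a count that allows up to 3 reads. At 351 to 500 nt the small RNAs were numerous again, with 85 reads (567 per kb, 453 to 701), where RNA-seq averaged 3.51 pieces per base. Most of these bases are shared with pROK2, the plasmid of the line SALK_059379. The 96 bases of 251 to 500 nt that are not shared lie before and behind a shared run at 340 to 493 nt. By midpoint they held 18 reads (188 per kb, 111 to 296), an interval that overlaps that at 101 to 225 nt. The first 250 nt held 87 reads and the first 339 nt 92, so most of the 18 lay just behind the run. Reads there can include shared bases. These bounds were also set after the values had been seen.

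**Figure D2:**
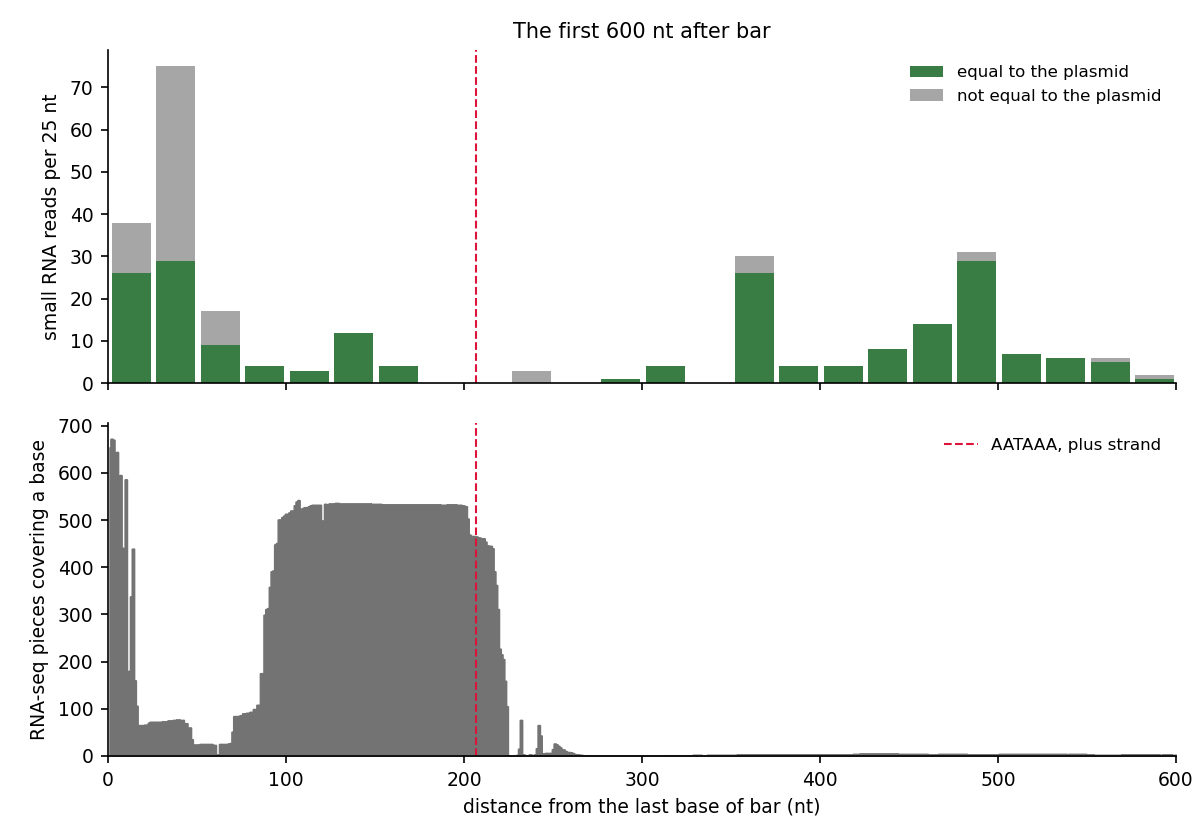
Small RNA reads per 25 nt (upper panel, reads equal to the plasmid in green, others in grey) and RNA-seq pieces covering each base (lower panel) in the first 600 nt behind bar. The dashed line marks AATAAA on the plus strand at 204 to 209 nt, shortly before RNA-seq ends, and the bins from 176 to 275 nt hold no small RNA equal to the plasmid.

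The rule that reads equal the plasmid mattered most in the first 75 nt. There, 66 of 130 small RNA reads (50.8%, 41.9 to 59.6) differed from the plasmid, against 21 of 171 (12.3%, 7.77 to 18.2) beyond 1000 nt. Of the 66 reads, 56 were on the plus strand and 49 had 30 nt or more. Counted from the listed start, 35 of them first differed from the plasmid at the same base, 45 nt behind bar. RNA-seq was also irregular there. Its depth was 672 pieces at most within 50 nt of bar, 24 at 50 nt and 86 at 75 nt, before it reached 513 at 100 nt. Of the 2379 pieces starting in the first 75 nt, 81.8% had 5 bases or fewer, and 11.6% equalled the plasmid. All 18 small RNA reads across the last base of bar differed from the plasmid, and all were on the plus strand, so that no member crossed this boundary. Whether the integrated T-DNA has the deposited sequence at this place was not tested. With all listed reads, the first 250 nt held 156 small RNAs (132 to 182) in place of 87 (69.7 to 107).

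Small RNAs then declined with distance, in steps rather than evenly. The windows of 1 to 250 nt, 251 to 500 nt and 501 to 750 nt held 87, 90 (72.4 to 111) and 67 (51.9 to 85.1) members, whose intervals overlap. With all listed reads, also those that differ from the plasmid, these windows held 156 (132 to 182), 96 (77.8 to 117) and 82 (65.2 to 102). The first window then stood above the second, so the level start depends on the rule for members. The window of 751 to 1000 nt held 50 members (37.1 to 65.9), below the first window and the second. At 1001 to 1250 nt there were 26 reads (16.98 to 38.1), and at 1251 to 1500 nt 9 (4.12 to 17.1), the lowest count of the 11 windows. The window of 1501 to 1750 nt rose to 34 reads (23.5 to 47.5), above its neighbour. The windows of 1751 to 2000 nt, 2001 to 2250 nt and 2251 to 2500 nt held 15 reads each (8.40 to 24.7). The last window, 2501 to 2771 nt, held 36 reads (25.2 to 49.8). Per kb this was 133 (93.0 to 184) against 60 (33.6 to 98.96) in each of those 3, and the intervals overlap. Per kb, the first 1000 nt held 294 reads (261 to 330), and the bases from 1001 to 2500 nt 76 (62.7 to 91.3).

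**Figure D3:**
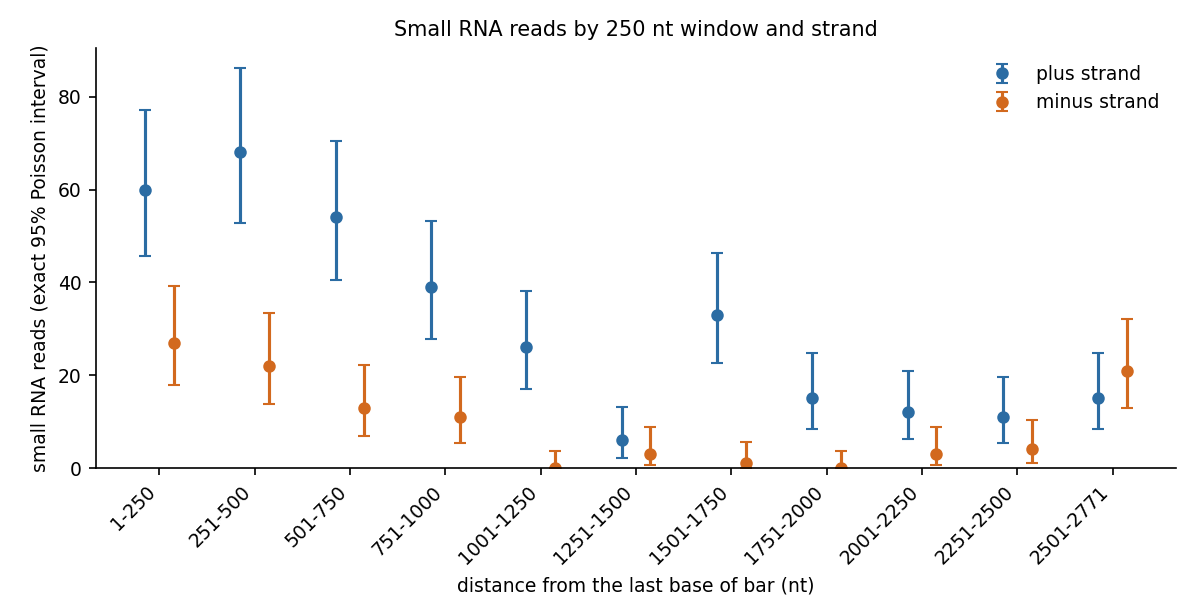
Small RNA reads in each 250 nt window by strand, with exact Poisson 95% intervals, against the distance from the last base of bar in nt. The plus strand falls from 60 and 68 reads to 6 and rises again to 33 reads at 1501 to 1750 nt, and the last window has 21 minus-strand and 15 plus-strand reads.

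The strands declined differently. On the plus strand the first 4 windows held 60, 68, 54 and 39 reads, the next 26 and 6, and those from 1501 nt on 33, 15, 12, 11 and 15. On the minus strand the first 4 windows held 27, 22, 13 and 11 reads, and the next 6 held 0, 3, 1, 0, 3 and 4. The minus strand was thus nearly empty between 1001 and 2500 nt, with 11 reads (5.49 to 19.7) against 103 (84.1 to 125) on the plus strand. In the last window it returned with 21 reads (13.0 to 32.1). There the plus-strand share was 41.7% (25.5 to 59.2), and it was 97.1% (84.7 to 99.9) at 1501 to 1750 nt.

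Behind the first 339 nt, minus-strand reads lay mainly where pCSA110 shares sequence with pROK2, the plasmid of the line SALK_059379. Runs of at least 21 nt that both plasmids hold made up 5 runs and 710 of the 2771 nt. They lay at 340 to 493, 580 to 715, 717 to 841, 843 to 880 and 2515 to 2771 nt behind bar. These runs held 193 members (272 per kb, 235 to 313), and the other bases 251 (122 per kb, 107 to 138). The plus-strand share was 66.8% (59.7 to 73.4) on shared and 83.7% (78.5 to 88.0) on other bases. Among 21 to 24 nt reads it was 49.5% (39.6 to 59.5) on shared and 74.7% (65.0 to 82.9) on other bases. On the 1722 bases past 339 nt that are not shared, 147 reads (124 to 173) were on the plus strand and 12 (6.20 to 21.0) on the minus strand, 7.55% (3.96 to 12.8) of them. The first 339 nt are not shared and went the other way, with 29 minus-strand reads (85.5 per kb, 57.3 to 123), as against 64 (90.1 per kb, 69.4 to 115) on the shared runs.

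On bases that are not shared, small RNAs also declined. Their density was 271 reads per kb (219 to 333) in the first 339 nt. In the 88 such bases between 340 and 880 nt it was 352 (239 to 500), where reads can include shared bases of the adjoining runs. In 80 of these, at 501 to 750 nt, it was 225 (133 to 356). It was 79.0 (58.5 to 104) at 881 to 1500 nt and 77.9 (61.7 to 97.1) at 1501 to 2514 nt. Within these blocks the density was uneven, with 36 per kb (16.5 to 68.3) at 1251 to 1500 nt and 136 (94.2 to 190) at 1501 to 1750 nt. All 36 members of the last window had sequences that also occur on pROK2. In all, 169 members (38.1%) had such sequences. Of these, 58 were also listed in the SALK_059379 small RNA library, whose table holds 25606 reads. None of the other 275 members was, but that table lists reads mapped to pROK2, so sequences absent from pROK2 could hardly appear there. Whether reads of shared sequence came from the pCSA110 T-DNA cannot be told apart from their sequence.

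In the SALK_059379 library, which had its own T-DNA and was also made from leaf tissue, 763 reads equal to pROK2 had sequences of this stretch. Of their 21 to 24 nt reads, 252 of 682 (36.9%, 33.3 to 40.7) had 24 nt. In SAIL_232 the share on the shared runs was 25 of 105 (23.8%, 16.0 to 33.1). With 1 library per line, this difference has no replicate check.

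By length, the small RNAs were a mixture. The classes of 15 to 20 nt held 99 reads, 21 nt 84, 22 nt 55, 23 nt 22, 24 nt 43, 25 to 29 nt 43 and 30 to 47 nt 98. No member was longer than 47 nt or shorter than 17 nt. The 21 to 24 nt classes made up 45.9% (41.2 to 50.7). They were 37.2% (32.0 to 42.6) of the plus-strand reads but 74.3% (64.8 to 82.3) of the minus-strand reads. Reads of 25 nt or more were on the plus strand in 131 of 141 cases (92.9%, 87.3 to 96.5), whereas 22 nt reads were split into 30 and 25.

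**Figure D4:**
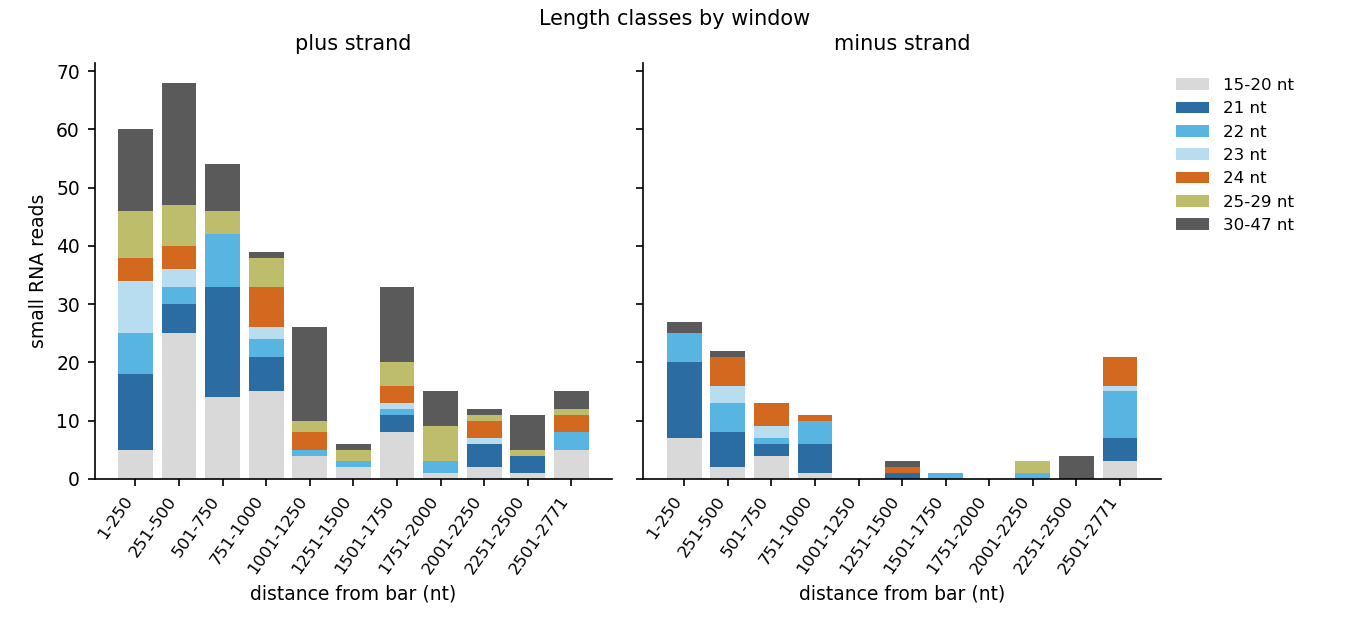
Small RNA reads by length class in each 250 nt window, plus strand on the left and minus strand on the right. The 30 to 47 nt class (dark grey) occurs mainly on the plus strand, with 16 of the 26 reads at 1001 to 1250 nt, and the minus strand of the last window holds mainly 21, 22 and 24 nt reads.

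Length classes changed along the stretch. At 1 to 1000 nt, 51.02% (45.2 to 56.9) of reads had 21 to 24 nt and 16.0% (12.0 to 20.7) had 30 nt or more. At 1001 to 2500 nt these shares were 26.3% (18.5 to 35.4) and 42.1% (32.9 to 51.7). In the last window they were 66.7% (49.0 to 81.4) and 8.33% (1.75 to 22.5). In the window of 251 to 500 nt, 25 of the 68 plus-strand reads had 15 to 20 nt and 21 had 30 nt or more, and 15 had 21 to 24 nt. In the window of 501 to 750 nt, 19 of 54 plus-strand reads had 21 nt and none had 24 nt. At 1001 to 1250 nt, 16 of 26 reads (61.5%, 40.6 to 79.8) had 30 nt or more, and all 26 were on the plus strand. Among the 21 minus-strand reads of the last window, 4 had 21 nt, 8 had 22 nt and 5 had 24 nt. The 24 nt share of the 21 to 24 nt reads was 7.84% (2.18 to 18.9) in the first window and 26.5% (12.9 to 44.4) in the second. It was 10.8% (3.03 to 25.4), 28.6% (13.2 to 48.7) and, with 4 reads, 75% (19.4 to 99.4) in the next 3. From 1251 to 2500 nt the windows had 33.3%, 33.3%, 0%, 33.3% and 0%, of 3, 9, 2, 9 and 3 reads. The intervals of the first and the fifth window do not overlap, but this pair was picked from many and rests on 4 reads in the fifth. The share was 16.7% (11.1 to 23.6) at 1 to 1000 nt, 33.3% (17.3 to 52.8) at 1001 to 2500 nt and 33.3% (15.6 to 55.3) in the last window, with overlapping intervals, and no trend was tested.

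The stretch differed from its neighbours on the T-DNA in density and in length classes. Small RNA density was 160 reads per kb (146 to 176). It was 2225 (2102 to 2353) on bar, 1118 (1032 to 1210) on the stretch before bar that holds the mannopine synthase (MAS) promoter, and 362 (326 to 401) in the 1000 nt upstream of GUS. Of 21 to 24 nt reads behind bar, 26.96% (21.0 to 33.6) had 22 nt. On bar 14.8% (11.5 to 18.6) had this length, on the MAS promoter stretch 14.4% (11.4 to 17.8), and upstream of GUS 10.7% (7.41 to 14.9). With identical reads counted once the 22 nt share was 32.8% (25.1 to 41.4) behind bar. It was then 18.4% (13.2 to 24.7) on bar, 22.8% (16.2 to 30.5) on the MAS promoter stretch and 18.5% (11.7 to 27.1) upstream of GUS, so that only the interval of bar stayed separate. It did not stay separate from the reads on bar where the 22 nt share was taken on unshared bases (24.2%, 16.2 to 33.9), without the last window (24.4%, 18.36 to 31.4) or on the plus strand (23.8%, 16.7 to 32.2).

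Among the other classes, the 24 nt share behind bar was 21.1% (15.7 to 27.3). It was 62.6% (56.8 to 68.2) upstream of GUS, beyond the interval of the stretch, and 14.04% (10.8 to 17.8) on bar, within overlap. The MAS promoter stretch had 12.8% (9.92 to 16.1), also within overlap. The 21 nt share was 41.2% (34.4 to 48.3), below the 57.9% (52.9 to 62.7) of bar and above the 12.1% (8.58 to 16.4) upstream of GUS. It was highest on the MAS promoter stretch, with 70.6% (66.3 to 74.6). Reads of 30 nt or more were 22.1% (18.3 to 26.2) of all reads behind bar, between the 33.6% (30.9 to 36.3) of bar and the 7.18% (4.75 to 10.3) upstream of GUS. Such reads were 11.2% (8.85 to 13.96) on the MAS promoter stretch, below the interval behind bar. The plus strand held 76.4% of the reads behind bar, 88.6% (86.7 to 90.3) of those on bar and 30.9% (26.2 to 36.0) of those upstream of GUS. Its share on the MAS promoter stretch was 71.96% (68.3 to 75.4), an interval that overlaps that of the stretch behind bar. The strand with more reads thus changed between the stretch and the 1000 nt that follow it. The interval of the last window of the stretch includes 50%.

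**Figure D5:**
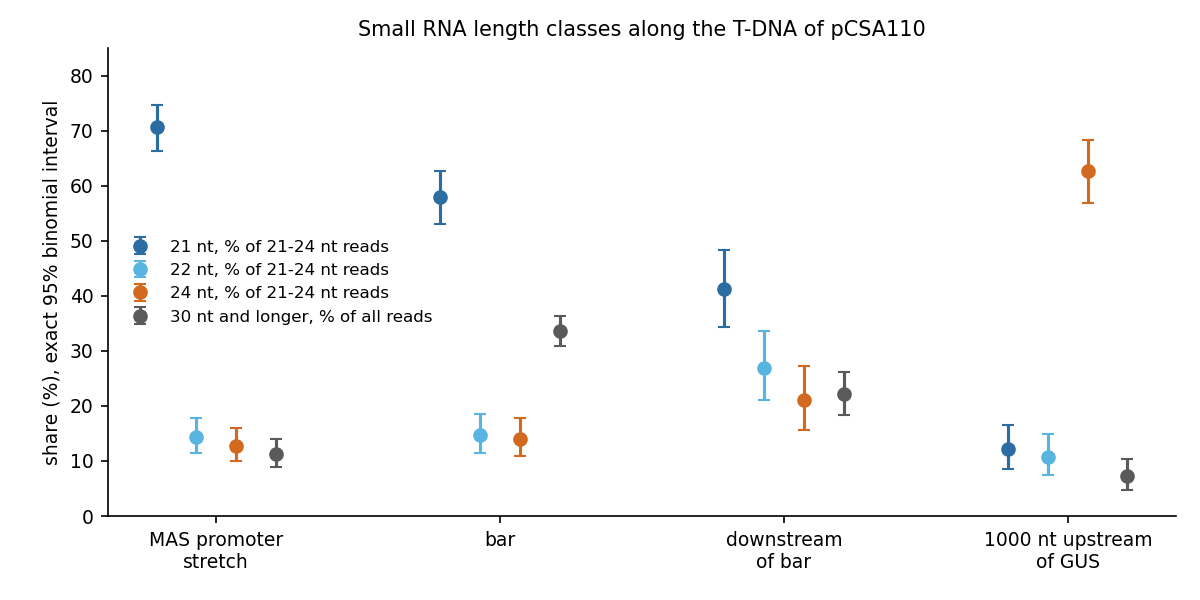
Shares of 21, 22 and 24 nt reads among 21 to 24 nt small RNAs, and of reads of 30 nt and longer among all small RNAs, with exact binomial 95% intervals, for 4 consecutive stretches of the pCSA110 T-DNA. Behind bar the 22 nt share is 26.96%, and upstream of GUS the 24 nt share is 62.6%.

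Small RNAs of the stretch were varied, with few piles of identical reads. The 444 members comprised 325 distinct reads, of which 242 were seen once, and 277 different 5′ ends. Distinct reads were 73.2% (68.8 to 77.3) of all reads, against 60.1% (57.3 to 62.9) on bar and 39.7% (35.9 to 43.7) on the MAS promoter stretch. Such shares fall as reads per base rise. Density was 160 reads per kb here, 2225 on bar and 1118 on the MAS promoter stretch, so these shares were not taken at like depth. The most frequent read was a 21 nt plus-strand RNA at 2017 to 2037 bp, 638 to 658 nt behind bar, with 8 reads. It is also the most frequent 21 nt read and holds the most frequent 5′ end, 1.80% of all members. The most frequent minus-strand read, with 5 reads, had 21 nt and lay at 744 to 764 nt. Of the 22 nt reads the most frequent had 4 reads, at 15 to 36 nt on the minus strand. Of the 24 nt reads, 3 were tied at 3 reads each, on the minus strand at 680 to 703 nt and at 2721 to 2744 nt and on the plus strand at 1037 to 1060 nt. The next 5′ ends were on the plus strand at 12 and 22 nt, with 6 reads each, and 5 further ends had 5 reads each. The latter lay on the plus strand at 15, 18, 966 and 2189 nt and on the minus strand at 764 nt. On bar the most frequent 5′ end held 24 reads, 1.95% of its reads. A single 5′ end held 64 reads (10.3%) on the MAS promoter stretch and 63 reads (17.4%) in the 1000 nt upstream of GUS.

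The reads were also examined for features of Dicer products. Such enzymes leave duplexes whose strands overhang by 2 nt at their 3′ ends. Among the 30 distinct plus-strand and 17 distinct minus-strand reads of 21 nt, 0 pairs had this arrangement, and neither had any of 25 and 20 distinct reads of 22 nt or 19 and 10 of 24 nt. At this depth few pairs at any offset were seen, at most 3. A 5′ U began 25.2% (21.2 to 29.5) of all members, whose other positions held 22.1% U. In the 22 nt class it was 34.5% (22.2 to 48.6) against 20.1%, and in the 24 nt class 34.9% (21.0 to 50.9) against 19.7%. With identical 24 nt reads counted once it was 34.5% (17.9 to 54.3) against 19.5%, so that the interval then included the other positions. A 5′ A was found in 30.2% (17.2 to 46.1) of 24 nt reads against 27.1%. Of the 15 to 20 nt reads, 42.4% (32.5 to 52.8) began with G, and 30.01% of their other positions were G. A 5′ G was found in 13.95% (5.30 to 27.9) of 24 nt reads, whose other positions held 32.2% G.

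RNA-seq behind the first 250 nt was sparse but not empty. The window of 1 to 250 nt held 4055 minus-strand pieces, the most of any window, and 4 plus-strand pieces. The next window held 20 and 5 pieces, and those of 501 to 750 nt and 751 to 1000 nt held 4 and 3, and 2 and 0. From 251 to 1500 nt a base was covered by 2.05 pieces on average, and 17.8% of bases by none. At 1001 to 1250 nt all 16 pieces were listed on the plus strand, and 8 of them had at least 15 bases. The 26 small RNAs of that window were also listed on the plus strand. The strands listed in both libraries cannot be equated, since pieces on bar were mostly listed opposite to its coding strand. A second group of minus-strand pieces followed, 92 at 1501 to 1750 nt and 196 at 1751 to 2000 nt, with a maximum of 87 pieces at a base, 1967 nt behind bar. The window of 1501 to 1750 nt held 27 plus-strand pieces, the most of any window on that strand. At 2001 to 2250 nt 5 pieces began. The windows of 2251 to 2500 nt and 2501 to 2771 nt held 35 and 44 minus-strand pieces and 9 and 5 plus-strand pieces.

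RNA-seq depth and small RNA counts did not follow the same order over the windows. At 1751 to 2000 nt the average depth was 60.0 RNA-seq pieces per base, and 15 small RNAs were found, none on the minus strand. At 251 to 500 nt, where the average depth was 3.04 pieces, 90 small RNAs were found. Of these 90 reads, 72 lay on a run shared with pROK2. The window of 1 to 250 nt had the highest depth, 315, with 87 small RNAs, and that of 1251 to 1500 nt had a depth of 1.76 with the fewest, 9. The second group of pieces lay outside the runs shared with pROK2 and partly over the open reading frame of 286 codons. None of the 1076 RNA-seq pieces with at least 20 bases in the stretch occurred in the TAIR10.1 genome. Of the small RNA members 16 (3.60%) did, all of 19 to 22 nt.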

How the data were processed

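Small RNA and RNA-seq tables of SAIL_232, 1 library each, the small RNA table of SALK_059379 and both plasmid sequences were used. The authors trimmed adapters, mapped reads to the plasmids with Bowtie2 2.3.0 and the Geneious aligner, and re-mapped them to TAIR10 to exclude off-target reads. The submitters' processing notes also name Bowtie 0.12.7 and FastQC. The deposited values are strand, start and end of each read or aligned piece, with its bases in plus-strand orientation and no normalization. Counts were made here by counting entries with Python 3.11.15, numpy 2.4.6, pandas 2.3.3 and scipy 1.17.1. The small RNA depth was 3175 reads on pCSA110.

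Reads were assigned by midpoint, RNA-seq pieces by first base. Windows had 250 nt, and the last had 271. All windows are named, with the most frequent read of each strand and of 21, 22 and 24 nt, the 5 most frequent 5′ ends with their ties, and the RNA-seq window with most pieces per strand. Members, windows and lists were chosen with earlier results of these data known. Intervals are exact 95% Poisson and Clopper-Pearson intervals. PCR reads are not independent molecules. A count of 0 allows up to 3 reads. A read can take several RNA-seq pieces, so piece counts exceed read counts. Exact matches were searched on both strands of TAIR10.1, without use of its coordinates. The counting steps were tested on simulated reads. The sources used here state neither the number of reads sequenced, so that nothing was scaled to it, nor the aligner behind each table.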

Additional observations from a re-analysis of the deposited data

Results flagged for a closer look

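In the stretch, 120 small RNA reads were listed that differ from the plasmid and belong to no comparison of the report except where stated. Of these, 95 were on the plus strand and 25 on the minus strand, 64 had 30 nt or more, and 25 had 21 to 24 nt. They were 21.3% of all small RNA reads with a midpoint in the stretch, against 7.81% on the rest of pCSA110. They drew attention as signal in data outside the main measurement, with no control library to set them against. The first 75 nt held 66 of them.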

How the results depend on the processing

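Of 61 alternative values for 8 results, 33 stayed within the 95% interval of the value reported. No share turned to the other side of 50% except the RNA-seq share within 500 nt with identical pieces counted once. The 24 nt share of 21 to 24 nt small RNAs stayed within its interval under all alternatives run. Leaving out sequences found on pROK2, and other distances, were tried after the data had been seen. The 444 small RNAs became 564 with mismatched reads, 325 with identical reads counted once, 393 with an end 500 nt nearer to bar, 376 with the start 100 nt further from bar and 275 without sequences found on pROK2. Without these sequences the plus-strand share was 85.1% in place of 76.4%, and the share of 30 nt and longer reads 28.4% in place of 22.1%. The latter was 28.7% with mismatched reads. The small RNA share within 500 nt, 39.9%, was 44.7% with mismatched reads, 45.04% with an end 500 nt nearer to bar and 28.99% with the later start. Within 250 nt it was 19.6%. The 4533 RNA-seq pieces became 917 when joined, 1825 with at least 15 bases, 1000 when equal to the plasmid, 482 when identical pieces were counted once and 1726 with the later start. Their share within 500 nt was 71.0%, 79.8%, 83.2%, 40.04% and 74.0% in the same order, and 91.96% with an end 500 nt nearer to bar. The minus-strand share of 98.2% was 95.2% when joined, 97.5% with at least 15 bases, 86.9% with identical pieces counted once, 95.5% with the later start and 83.5% without the first 250 nt. No paired analysis was possible because each line and assay had 1 library, and no replicate could be left out. With 9 to 90 small RNAs in a window, depth limits the comparison of length classes within windows.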
